A study of Ursus arctos with 12 samples.

Results

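The genes of the unfolded protein response and the integrated stress response were compared between the hibernating and the active brown bear. These are the 10 rows of the gene count table whose symbol is ATF4, ATF6, XBP1, DDIT3, ERN1, EIF2AK3, EIF2AK4, TRIB3, CHAC1 or PPP1R15A, of 30249 genes in all, matched by symbol. All 10 had at least 30 reads summed over the libraries and were tested, among 17290 genes. The data were RNA-seq libraries of vastus lateralis, a thigh muscle, from 6 free-ranging brown bears of 2 to 3 years. Each bear gave 1 biopsy in winter, during hibernation in February, and 1 in summer, during the active period in June. This gave 6 winter and 6 summer libraries, and season was the only condition compared. Per the study's methods, the bears were captured and anesthetized for sampling. Hibernation and the time of year cannot be told apart in this design.

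When unfolded proteins gather in the endoplasmic reticulum (ER), they are sensed by 3 membrane proteins, PERK (gene EIF2AK3), IRE1 (ERN1) and ATF6. PERK phosphorylates the translation factor eIF2, and so does GCN2 (EIF2AK4), which is activated when amino acids run short. Phosphorylated eIF2 lowers translation in general but favors that of the transcription factor ATF4, whose known targets include CHOP (DDIT3), TRIB3 and CHAC1, while GADD34 (PPP1R15A) brings a phosphatase that reverses the eIF2 mark. IRE1 splices the XBP1 mRNA, and cleaved ATF6 and spliced XBP1 drive genes for ER chaperones and for the degradation of misfolded ER proteins. Gene-level counts measured neither the phosphorylation of eIF2, the cleavage of ATF6, the splicing of XBP1 nor any protein level.

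Libraries held between 16742406 and 32140160 counted reads. Levels are given as CPM, the reads of a gene per 1000000 reads of its library after TMM scaling. The fold change (FC) is the winter over summer ratio from edgeR's quasi-likelihood test, with its log2 value and a Benjamini-Hochberg adjusted p over all genes tested. The standard error (SE) was derived as the absolute log2 value over the square root of the F statistic of that test. A gene was called higher or lower at an adjusted p below 0.05. CPM were not divided by transcript length, so levels were compared between seasons and not between genes. In a bulk muscle sample, fewer cells of a type and less RNA per cell cannot be told apart.

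Muscle identity was as labelled. The 9 tested markers of skeletal muscle fibers, which include titin and creatine kinase, summed to 109288 to 185006 CPM in summer and 114220 to 153137 CPM in winter. One winter library, that of bear 1509, stood apart from the other 11 on the second principal component. Without it the calls of the 10 genes were the same. Among the pathway lists the higher count went from 4 to 6 for ATF6 relatives and for signaling targets of ATF4 and CHOP. It went from 2 to 4 for eIF2 kinases and their regulators and from 7 to 9 for ER-associated degradation. The lower count went from 10 to 12 for ATF4 targets of amino acid supply and from 4 to 6 for ER translocation and export. The other counts of the lists moved by at most 1 gene. The summer library of bear 1512 stood apart in PPP1R15A, as described below.

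Of the 10 genes, 3 were higher in winter (ATF4, DDIT3 and TRIB3), 2 were lower (ATF6 and XBP1) and 5 were not called. Over all genes tested, 19.6% were called higher and 19.9% lower, so the share of called genes in this group, 5 of 10, stands beside 39.5% called in either direction. The median log2 FC of the 10 genes was -0.12, beside -0.00 over all genes. None of the 10 had seasons that were fully separate in CPM, a pattern shown by 17.3% of all genes tested (9.12% higher and 8.21% lower in winter). The same sign in all 6 bears was found for the 5 called genes, 3 upward and 2 downward, beside 18.4% and 19.0% of all genes. With the bear as a block the count was also 3 higher and 2 lower, beside 19.6% and 21.2% of all genes. At a stricter threshold, an adjusted p below 0.01 with FC above 1.3 or below 0.77, 2 genes were higher and 1 lower, beside 24.0% of all genes in either direction. The 3 higher genes all belong to the ATF4 branch, and the 2 lower genes are the transcription factors of the ATF6 and IRE1 branches. The other genes of these branches were not called. Their log2 FC was -0.23 for EIF2AK3, 0.25 for EIF2AK4, -0.87 for CHAC1, -1.36 for PPP1R15A and -0.02 for ERN1.

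**Figure D1:**
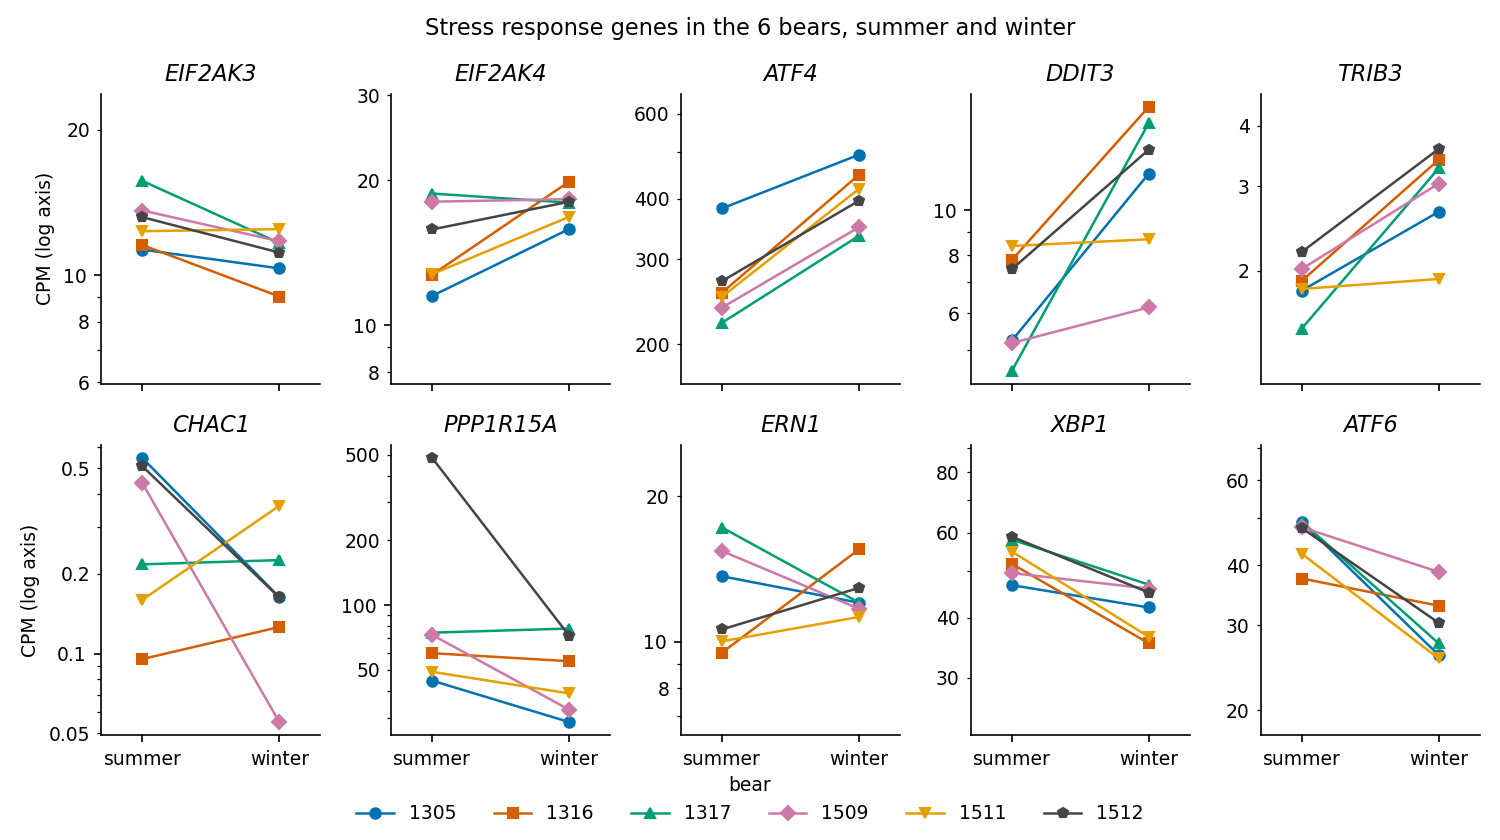
Level of each of the 10 genes in summer and winter, in CPM on a log axis, with 1 line per bear (n = 6). Every line rises for ATF4, DDIT3 and TRIB3 and every line falls for XBP1 and ATF6, while PPP1R15A holds 1 summer library, that of bear 1512, at 482 CPM, far above the other 11.

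The 2 eIF2 kinases of the group did not pass the test. EIF2AK3, the ER-resident kinase PERK, ranged from 11.3 to 15.7 CPM in summer (median 12.8) and from 9.03 to 12.5 CPM in winter (median 11.4). Its winter level was lower in 5 of 6 bears, with bear 1511 the exception, and the ranges overlapped (FC = 0.854, log2 -0.23, SE 0.12, adjusted p = 0.138 by edgeR). EIF2AK4, the amino acid sensor GCN2, ranged from 11.5 to 18.8 CPM in summer (median 14.3) and from 15.8 to 19.9 CPM in winter (median 18.0). It was higher in winter in 5 of 6 bears, and the summer libraries were spread more widely than the winter ones (FC = 1.19, log2 0.25, SE 0.13, adjusted p = 0.143 by edgeR). Bears 1317 and 1509, which had the highest summer levels of EIF2AK4, showed the smallest seasonal differences, with log2 changes of -0.06 and 0.02. The change is winter minus summer, so a high summer level lowers it by construction.

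ATF4, the transcription factor through which the eIF2 kinases act, was higher in the hibernating bear. The summer libraries lay between 222 and 382 CPM (median 253) and the winter libraries between 335 and 494 CPM (median 408). The overlap came from 1 library: bear 1305 had 382 CPM in summer, whereas the other 5 summer libraries did not exceed 270 CPM, below every winter library. That bear also had the highest winter level, 494 CPM. The change of bear 1305 was the smallest, 0.37 on the log2 scale, and the largest was 0.81 in bear 1316. Across bears FC was 1.51 (log2 0.59, SE 0.14, adjusted p = 0.00476 by edgeR), with between 5102 and 12181 reads per library.

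DDIT3 encodes CHOP, a transcription factor induced by ATF4 that promotes cell death under prolonged ER stress. It had the largest seasonal difference among the called genes of the group. Summer levels ran from 4.52 to 8.38 CPM (median 6.36) and winter levels from 6.18 to 16.7 CPM (median 12.8), on 104 to 415 reads per library. The rise was uneven between bears. Bear 1509 stayed within the summer range in winter, at 6.18 CPM, and bear 1511 was just above it, at 8.66 CPM, with changes of 0.25 and 0.05 on the log2 scale. The other 4 winter libraries were well above all summer libraries. Bear 1317 went from the lowest summer level to 15.4 CPM, a log2 change of 1.75. The fit gave FC = 1.88 (log2 0.91, SE 0.24, adjusted p = 0.00806 by edgeR).

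TRIB3, a pseudokinase induced by ATF4 and CHOP that binds ATF4 and the kinase AKT, was also higher in winter. It was measured on few reads, 32 to 110 per library. Its summer libraries lay between 1.52 and 2.19 CPM (median 1.87) and its winter libraries between 1.93 and 3.58 CPM (median 3.15). Only the winter library of bear 1511 reached down into the summer range. The change of TRIB3 was smallest in the bear with the smallest change of DDIT3 (bear 1511, 0.07) and largest in the bear with the largest change of DDIT3 (bear 1317, 1.06), with FC = 1.58 across bears (log2 0.66, SE 0.18, adjusted p = 0.0101 by edgeR). Bear 1511 therefore had nearly flat DDIT3 and TRIB3, although its ATF4 change, 0.74, was among the larger ones.

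CHAC1, which degrades glutathione and is a target of ATF4, was barely detected, with 1 to 15 reads per library. Levels were 0.0954 to 0.546 CPM in summer and 0.0552 to 0.361 CPM in winter, and 3 bears moved in each direction. A seasonal difference was not detectable at this depth (log2 -0.87, SE 0.50, adjusted p = 0.182 by edgeR).

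PPP1R15A, the stress-induced partner of the eIF2 phosphatase, turned on 1 library. Summer levels ran from 44.6 to 482 CPM (median 66.2) and winter levels from 28.6 to 77.8 CPM (median 46.9). The summer library of bear 1512 held 12323 reads of the gene and 482 CPM, 6.47 times the next summer library, while the other 5 summer libraries lay between 44.6 and 74.5 CPM. PPP1R15A was lower in winter in 5 of 6 bears and was not called (log2 -1.36, SE 0.56, adjusted p = 0.0688 by edgeR). Without the summer library of bear 1512 the log2 FC was -0.24 (adjusted p = 0.487 by edgeR), without both libraries of that bear it was -0.37 (adjusted p = 0.297), and with the bear as a block it was -0.79 (adjusted p = 0.0631). PPP1R15B, the constitutive partner of the same phosphatase, was at 25.1 to 36.0 CPM in summer and 24.3 to 37.2 CPM in winter (log2 -0.03, SE 0.13, adjusted p = 0.861 by edgeR).

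PPP1R15A is also an early response gene, so the genes of that kind were read in the same library, with a list drawn up after this value was seen. In the summer library of bear 1512, 9 of 19 tested immediate early genes were above all 5 other summer libraries, and 6 were above all 11 other libraries. The share of all genes tested that were highest in this library is not given here, so these counts have no background. FOSL1, among the 6, was barely detected, at 0.235 CPM beside 0.0434 to 0.220 CPM in the other summer libraries. FOSB was at 80.8 CPM beside 8.49 to 34.2 CPM in the other summer libraries, and DUSP1, a phosphatase of MAP kinases, was at 149 CPM beside 38.4 to 115 CPM. FOS and JUN were not above the other summer libraries. The part of these genes in the PPP1R15A value was not tested. ATF4, ATF6, DDIT3 and ERN1 of the same library lay within the range of the other summer libraries, and XBP1 and TRIB3 were above the highest of them by ratios of 1.01 and 1.08.

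The IRE1 branch gave no common direction. ERN1, which encodes IRE1, ranged from 9.49 to 17.2 CPM in summer and from 11.3 to 15.5 CPM in winter, with medians of 12.13 and 12.05. It was higher in 3 bears and lower in 3, and the sign of its small difference changed with the fit (FC = 0.989, log2 -0.02, SE 0.16, adjusted p = 0.943 by edgeR). XBP1, the transcription factor whose mRNA IRE1 splices, was lower in winter in 6 of 6 bears. Its summer libraries lay between 46.7 and 58.8 CPM (median 53.2) and its winter libraries between 35.4 and 46.8 CPM (median 43.5). The ranges met at a single point, the winter library of bear 1317 and the summer library of bear 1305. XBP1 had the smallest change of the called genes, FC = 0.788 (log2 -0.34, SE 0.10, adjusted p = 0.0144 by edgeR), and without bear 1511, which had the largest change (-0.59), it was no longer called (log2 -0.30, adjusted p = 0.0535).

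ATF6, the ER membrane protein that becomes a transcription factor when cleaved in the Golgi, was lower in winter in every bear. Summer libraries lay between 37.5 and 49.2 CPM (median 47.9) and winter libraries between 25.6 and 38.7 CPM (median 29.0). Overlap was limited to the winter library of bear 1509, the one that stood apart from the others, and the summer library of bear 1316. The change ran from -0.92 in bear 1305 to -0.19 in bear 1316 on the log2 scale, with FC = 0.662 (log2 -0.60, SE 0.12, adjusted p = 0.00135 by edgeR).

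**Figure D2:**
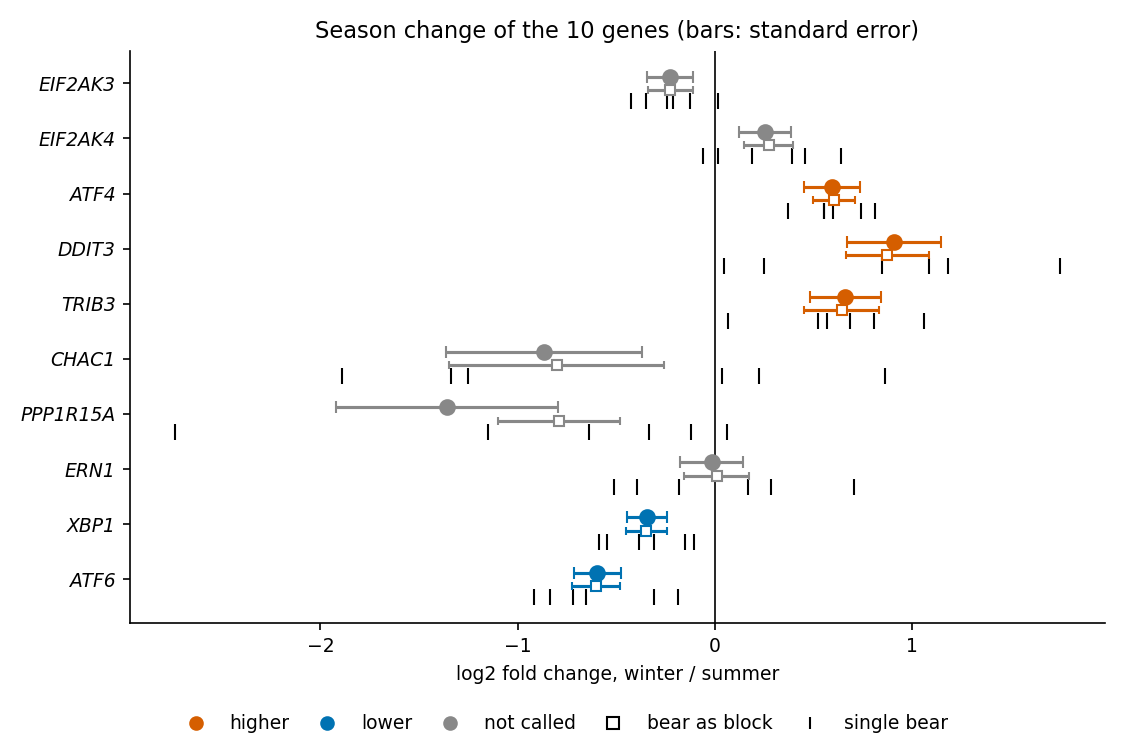
Winter over summer log2 FC of the 10 genes with its SE (filled circles), the same from the fit with the bear as a block (open squares) and the change of each bear (ticks, n = 6). ATF4, DDIT3 and TRIB3 lie above 0 and XBP1 and ATF6 below 0 in both fits, and the tick of PPP1R15A at the far left is bear 1512.

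Genes around these 10 were read from 10 lists of the same pathways, 189 tested genes in all without the 10 themselves. Of these, 38 (20.1%) were higher in winter and 47 (24.9%) lower, beside 19.6% and 19.9% of all genes tested. The lists differed from one another in direction, as the following paragraphs and the plot of pathway lists show.

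Of the 9 tested genes for eIF2, its exchange factor eIF2B and EIF5, 4 were higher in winter (44.4%), with a list median of 0.20 on the log2 scale, and 0 were lower by edgeR. At an unadjusted p below 0.05, 1 gene was lower, and DESeq2 and limma also called 0 lower. EIF5, which promotes GTP hydrolysis by eIF2 on the initiating ribosome, went from 200 to 301 CPM in summer to 404 to 746 CPM in winter, with no overlap (FC = 2.23, log2 1.16, SE 0.16). EIF2S3 and EIF2S2, the gamma and beta subunits of eIF2, had FC of 1.72 and 1.28, and EIF2B5, the catalytic subunit of eIF2B, had FC of 1.38. The call of EIF2S2 was lost without bear 1305 and without bear 1512. EIF2S1, the alpha subunit that carries the phosphorylation site, was at 4.17 to 5.25 CPM in summer and 2.94 to 4.36 CPM in winter and was not called (log2 -0.30, SE 0.14, adjusted p = 0.0992 by edgeR).

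Among 13 genes for other eIF2 kinases, kinase regulators and the eIF2 phosphatase, 2 were higher and 3 lower in winter, with a median log2 FC of -0.08. The count of higher genes was 4 without bear 1509. IMPACT, an inhibitor of GCN2 activation, rose from 18.5 to 29.8 CPM in summer to 38.3 to 53.0 CPM in winter without overlap (log2 0.90, SE 0.13). CREBRF, a negative regulator of the unfolded protein response, also rose (log2 0.74, SE 0.21). OMA1 and DELE1, the protease and its substrate that relay mitochondrial stress to the eIF2 kinase HRI, both fell, by 0.99 (SE 0.24) and by 0.61 (SE 0.16) on the log2 scale. The third lower gene, NCK1, an adaptor protein, was outside the rule for named genes. So were the kinases EIF2AK1 (HRI) and EIF2AK2. EIF2AK1 was not called (log2 0.08, SE 0.10). EIF2AK2 was lower in 6 of 6 bears and not called (log2 -0.35, SE 0.19, adjusted p = 0.164 by edgeR). With the bear as a block it was called lower (adjusted p = 0.0290 by edgeR), and the lower count of the list was 4.

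Of 8 genes for partners of ATF4 and related bZIP factors, 1 was higher and 2 were lower. CEBPG, a dimer partner of ATF4, was higher in 5 of 6 bears (log2 0.64, SE 0.20, adjusted p = 0.0210 by edgeR), and this call was lost without any one of bears 1305, 1316, 1317 and 1512 and with scaling by library totals. JDP2, a repressor of AP-1, was lower with no overlap, at 6.25 to 11.2 CPM in summer and 1.76 to 4.39 CPM in winter (log2 -1.40, SE 0.22). The other lower gene, BATF3, named after its values were seen, had 0 to 7 reads per library. ATF3 ranged from 23.7 to 125 CPM in summer and from 4.78 to 49.3 CPM in winter and was not called (log2 -1.14, SE 0.54, adjusted p = 0.105 by edgeR), whereas it was called lower with the bear as a block (log2 -1.26, adjusted p = 0.0188). ATF5 was not called (log2 0.19, SE 0.23, adjusted p = 0.546 by edgeR).

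Taken as 1 list, known ATF4 target genes for amino acid synthesis, transport and tRNA charging held more lower than higher genes. ATF4 itself was higher. Of 27 tested, 10 (37.0%) were lower in winter and 2 (7.41%) were higher, with a median log2 FC of -0.25. Transport and charging were each called in both directions. SLC1A5 was lower (log2 -0.77) and SLC38A2 higher among transporters, and CARS was lower (log2 -0.66) and SARS higher (log2 0.39) among tRNA synthetases. The lower count was 6 without bear 1317. The higher count was 4 with DESeq2 and with the filterByExpr minimum, and the fit with the bear as a block gave 9 lower and 3 higher. PYCR1 and ALDH18A1, enzymes of proline synthesis, fell by 1.34 (SE 0.37) and by 0.77 (SE 0.19) on the log2 scale, and the seasons did not overlap for ALDH18A1, at 27.4 to 48.8 CPM in summer and 11.7 to 26.5 CPM in winter. PHGDH, the first enzyme of serine synthesis, had a log2 FC of -1.29 (SE 0.39), which was -0.76 and no longer called without bear 1316 (adjusted p = 0.0867 by edgeR). SLC38A2, a transporter of neutral amino acids, went the other way, from 122 to 162 CPM in summer to 146 to 351 CPM in winter (log2 0.77, SE 0.21).

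ASNS, asparagine synthetase and a classical readout of ATF4 activity, was lower in winter in 6 of 6 bears, at 5.75 to 8.86 CPM in summer and 3.80 to 6.46 CPM in winter. Its log2 FC was -0.44 (SE 0.16, adjusted p = 0.0395 by edgeR), and the call was lost when any bear other than 1509 was left out. Within each of the 6 bears, ATF4 was higher and ASNS lower in winter. The other called genes of this list were outside the rule for named genes. MTHFD2, CTH, CARS, PSAT1, SLC1A5 and ALDH1L2 were lower and SARS was higher, and PSAT1 was not called with the bear as a block (adjusted p = 0.0603 by edgeR). These genes are shown in the plot of changes within each bear. Reads per library were few for MTHFD2 (8 to 85), CTH (2 to 55), ALDH1L2 (6 to 60) and PSAT1 (17 to 82).

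**Figure D3:**
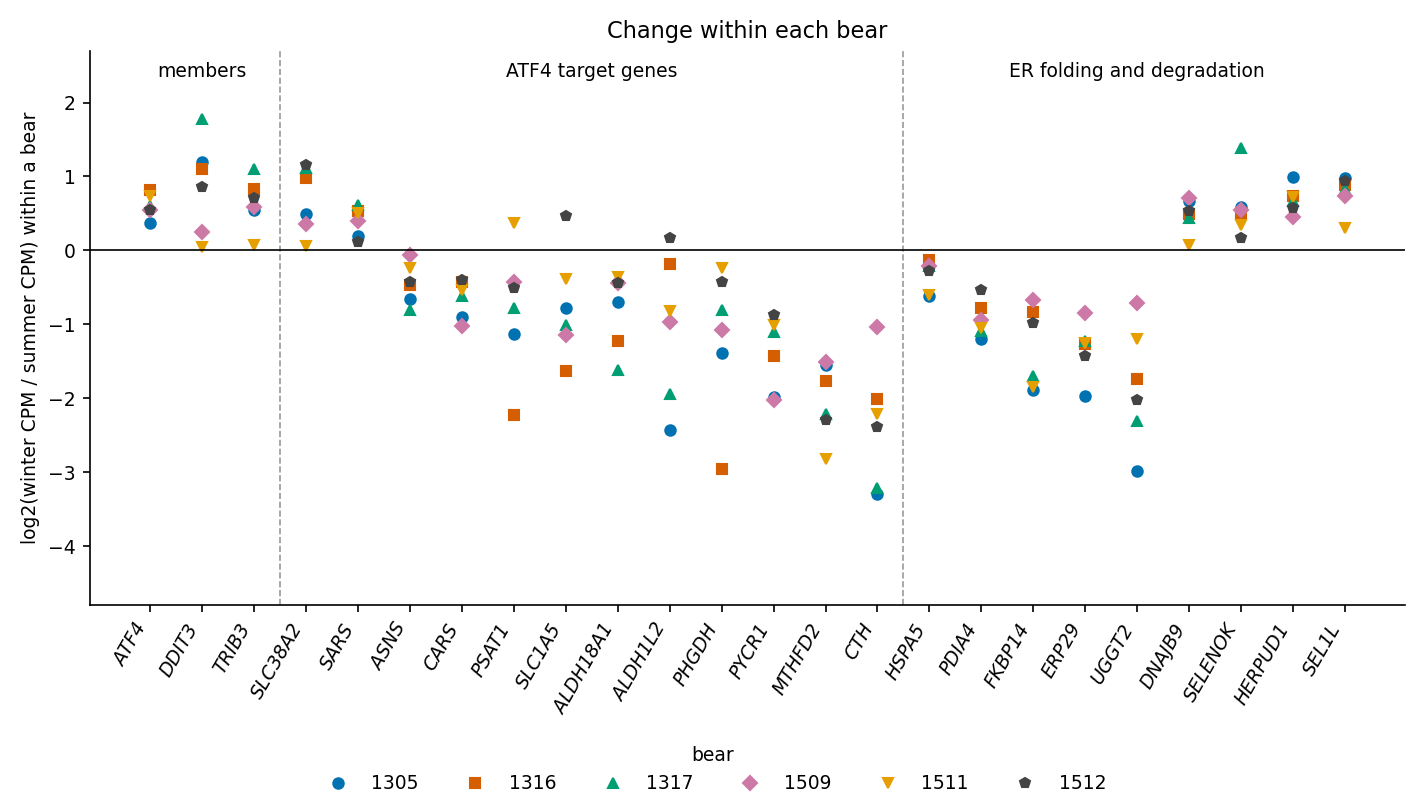
Change within each bear, log2 of winter CPM over summer CPM, for ATF4, DDIT3 and TRIB3, for the 12 called ATF4 target genes of amino acid supply and charging, and for ER folding and degradation genes (1 symbol per bear, n = 6). The 3 genes on the left lie above 0 in every bear, while 10 of the 12 target genes lie mostly or wholly below 0, and DDIT3 and TRIB3 are lowest in bear 1511.

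Other targets of ATF4 and CHOP, signaling and secreted factors, moved in both directions, 4 higher and 3 lower of 14 tested, with a median log2 FC of 0.37. DESeq2 called 7 higher. STC2, a secreted stanniocalcin induced by ER stress, went from 1.43 to 3.09 CPM in summer to 3.92 to 10.7 CPM in winter without overlap (FC = 3.36, log2 1.75, SE 0.25). GADD45A, a growth arrest gene, was also higher (FC = 2.11, log2 1.08, SE 0.25). VLDLR, a lipoprotein receptor, and VEGFA, the vascular growth factor, were both lower with no overlap between seasons (FC = 0.424 and 0.439). The other 3 called genes, PMAIP1 and BCL2L11, which promote apoptosis and were higher, and EIF4EBP1, a translational repressor that was lower, were named after their values were seen. PMAIP1 was barely detected, at 0.130 to 0.626 CPM in summer and 0.542 to 1.24 CPM in winter. FGF21 and GDF15, the secreted factors of muscle stress, were under the 30-read minimum and were not tested.

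**Figure D4:**
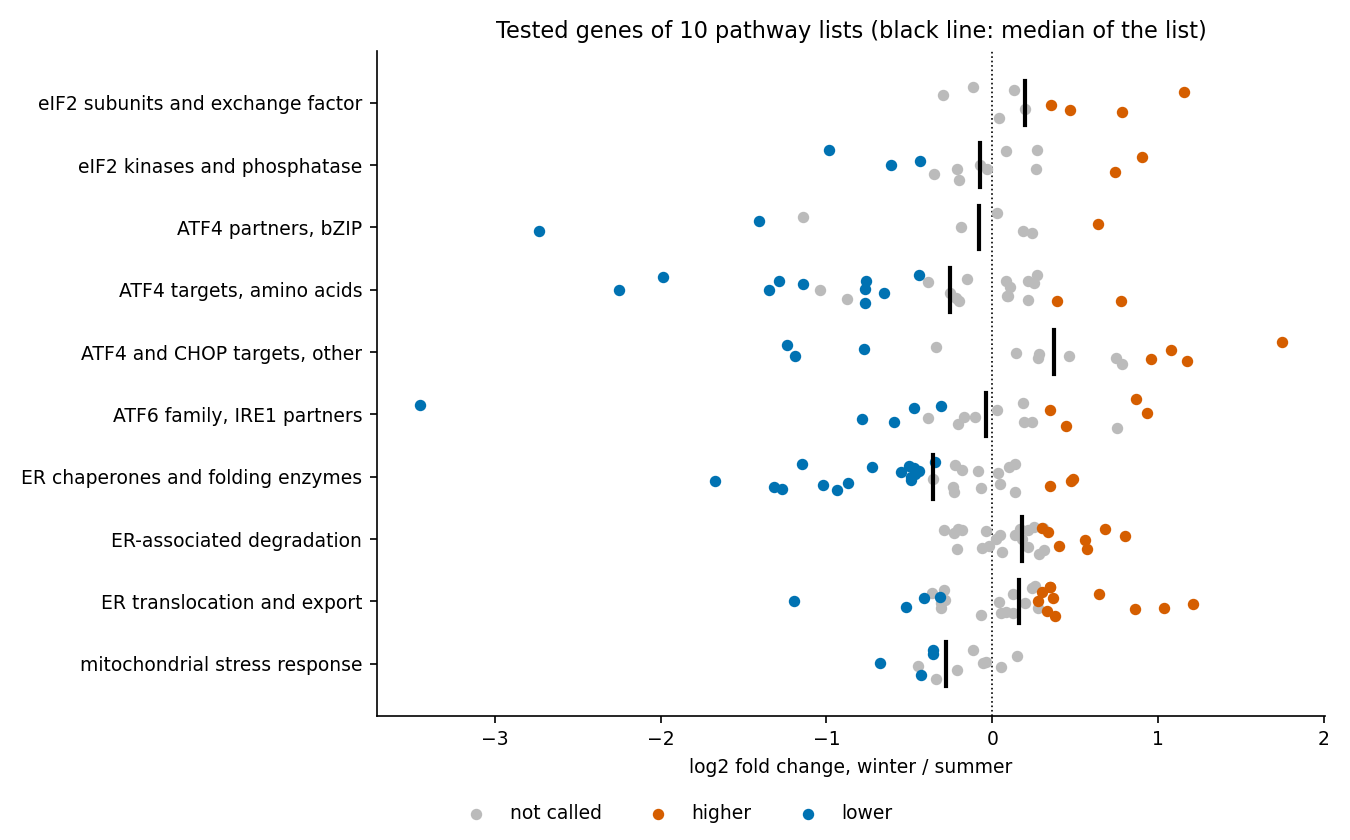
Winter over summer log2 FC of the tested genes of 10 pathway lists, 1 point per gene, colored by call, with the median of each list as a black line. ER chaperones lie mostly below 0 with a median of -0.36, while ER-associated degradation has a median of 0.18 and no gene called lower.

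Relatives of ATF6 and partners of IRE1 gave 4 higher and 5 lower of 18 tested, with a median of -0.04. CREB3L4 and CREB3L2, both membrane-bound factors related to ATF6, moved in opposite directions (log2 0.93, SE 0.18, and -0.78, SE 0.14). CREB3L1, of the same family, was outside the rule for named genes and was named after its values were seen. It was at 2.90 to 5.38 CPM in summer and 0.0651 to 0.883 CPM in winter, lower without overlap. NFYB, a subunit of the factor that binds DNA beside ATF6, rose from 30.3 to 43.6 CPM in summer to 52.0 to 80.8 CPM in winter with no overlap (log2 0.87, SE 0.14). MAP3K5, the kinase ASK1 that acts below IRE1, was lower (log2 -0.59, SE 0.20), a call lost without any one of bears 1317, 1509, 1511 and 1512. The lower count of this list was 3 without bear 1509 or bear 1511 and 2 without bear 1512, and the higher count was 2 without bear 1305.

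ER chaperones and folding enzymes, the main output of ATF6, had the largest share of lower genes among the 10 lists. Of 31 tested, 16 (51.6%) were lower in winter and 3 were higher, with a median log2 FC of -0.36. Over all genes tested, 19.9% were called lower. Of the 31, 12 were lower in all 6 bears, beside 19.0% of all genes. The lower count was 11 without bear 1511 and 17 with scaling by library totals. UGGT2, which tags misfolded glycoproteins for refolding, fell by 1.67 (SE 0.37) on the log2 scale, and FKBP14, a proline isomerase, fell by 1.27 (SE 0.21). ERP29 and PDIA4, of the protein disulfide isomerase family, fell by 1.31 (SE 0.21) and by 0.94 (SE 0.13), and the seasons overlapped for UGGT2 only among these 4. HSPA5, the chaperone BiP that holds the sensors inactive, was lower in 6 of 6 bears, at 89.7 to 128 CPM in summer and 77.2 to 107 CPM in winter (log2 -0.34, SE 0.11, adjusted p = 0.0222 by edgeR), a call lost without any one of bears 1305, 1511 and 1512. SDF2L1 was called lower on 1 to 18 reads per library (log2 -1.15, SE 0.41), and not with the bear as a block (adjusted p = 0.0699).

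DNAJB9, a cochaperone of BiP and a target of spliced XBP1, was among the 3 higher genes, at 22.5 to 29.1 CPM in summer and 29.2 to 42.1 CPM in winter with no overlap (log2 0.49, SE 0.10, adjusted p = 0.00215 by edgeR). The other 2, named after their values were seen, were CANX, the lectin chaperone calnexin (log2 0.35, SE 0.11), and P4HB, a disulfide isomerase (log2 0.48, SE 0.11). Summed over the 31 genes, the level was 1233 to 1505 CPM in summer and 1261 to 1459 CPM in winter. The summed ER chaperone level thus overlapped between seasons although 16 genes were lower and 3 higher. This sum is weighted toward genes with many reads, among them the higher genes CANX and P4HB and the lower gene HSPA5.

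Every marker list held more lower than higher genes, those of muscle fibers and adipocytes included, as the chaperone list did. Over all genes tested, 19.9% were called lower. Of 10 fibroblast and matrix markers 7 were lower and 0 higher by edgeR (0 also at an unadjusted p below 0.05 and by DESeq2 and limma), and their sum fell outside any overlap, from 4441 to 11811 CPM in summer to 322 to 2087 CPM in winter. Of 9 endothelial markers 6 were lower and 1 higher, with sums of 669 to 988 CPM in summer and 455 to 525 CPM in winter. Macrophage and leukocyte markers summed to 105 to 156 CPM in summer and 49.98 to 89.6 CPM in winter, with 6 of 10 lower. Smooth muscle and pericyte markers summed to 689 to 866 CPM in summer and 464 to 573 CPM in winter, with 4 of 10 lower. Adipocyte markers overlapped between seasons, at 1243 to 1837 CPM in summer and 471 to 1401 CPM in winter, with 2 lower and 1 higher of 10, and of the 9 muscle fiber markers 3 were lower and 1 higher. None of these markers was at 0 in all libraries. The part of these cells in the lower levels of ER chaperones, proline enzymes, VEGFA, ATF6 and XBP1 was not tested.

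ER-associated degradation, which returns misfolded proteins to the proteasome, had called genes in the higher direction alone. Of 27 genes tested, 7 (25.9%) were higher in winter, 0 were lower by edgeR and 20 were not called, with a median log2 FC of 0.18. Over all genes tested, 19.6% were called higher and 19.9% lower. The higher count was 5 without any one of bears 1305, 1317 and 1512, with no filter and with scaling by library totals. At an unadjusted p below 0.05, 10 were higher and 1 lower, DESeq2 and limma called 0 lower, and scaling by library totals gave 1 lower. SEL1L, the scaffold of the main ER ubiquitin ligase, was at 50.9 to 60.3 CPM in summer and 66.1 to 113 CPM in winter (log2 0.80, SE 0.12). HERPUD1, an ER stress-induced partner of that ligase, was at 40.8 to 64.1 CPM in summer and 75.3 to 102 CPM in winter (log2 0.68, SE 0.11). SELENOK, a selenoprotein of the ER membrane, had a log2 FC of 0.56 (SE 0.14), and the seasons did not overlap for any of these 3 genes.

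Genes for translocation into the ER and export from it included 11 higher (36.7%) and 4 lower of 30 tested, with a median log2 FC of 0.16. The higher count was 6 without bear 1305 and 4 with scaling by library totals. SEC63, which couples the translocon to BiP, had the smallest adjusted p of the named genes and went from 51.9 to 66.3 CPM in summer to 126 to 150 CPM in winter (FC = 2.32, log2 1.21, SE 0.09, adjusted p = 2.29e-06 by edgeR). SSR4 and SSR2, subunits of the translocon-associated complex, were higher (log2 1.04, SE 0.21, and 0.86, SE 0.15). SEC24D, a coat protein of the vesicles that carry collagen out of the ER, was lower without overlap (log2 -1.19, SE 0.20).

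Mitochondrial chaperones and proteases, which are tied to the integrated stress response through OMA1 and DELE1, gave 4 lower (33.3%) and 0 higher of 12 tested by edgeR, with a median log2 FC of -0.28. The count of higher genes was also 0 at an unadjusted p below 0.05, by DESeq2 and by limma. HSPD1 and HSPA9, the matrix chaperones HSP60 and mortalin, were lower without overlap, at 279 to 388 CPM against 183 to 257 CPM for HSPD1 (log2 -0.68, SE 0.12) and 358 to 448 CPM against 237 to 320 CPM for HSPA9 (log2 -0.43, SE 0.11). DNAJA3, a cochaperone of HSPA9, and CLPX, a matrix unfoldase, were both lower (log2 -0.36, SE 0.11, and -0.36, SE 0.10), and the call of DNAJA3 was lost without any one of bears 1316, 1317 and 1509.

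For each called gene of the group, the genes with the most similar changes over the 6 bears were found among 10345 expressed genes, by the root mean square difference of the 6 log2 changes. ATF4 was nearest to GSTCD (0.111), ALKBH3 (0.113) and FGF7 (0.113). TRIB3 was nearest to RAD23B (0.0878), RNF152 (0.105) and PRPF38B (0.120), and DDIT3, whose bears differed most, to RBM34 (0.229), LMOD2 (0.253) and STK17B (0.269). For ATF6 the nearest were ATRNL1 (0.102), SLC10A7 (0.106) and USP31 (0.136), and for XBP1 they were FAM45A (0.0649), SNAP23 (0.0748) and EMC8 (0.0878). None of these 15 genes was another of the 10 or stood in any of the pathway lists, and likeness over 6 bears is a description.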

How the data were processed

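Muscle RNA of 6 bears was sequenced by the authors as stranded mRNA libraries (single reads of 50 bases, 2 lanes), aligned to the brown bear assembly ASM358476v1 with TopHat2 2.1.1 and Bowtie2 (version 2.2.9 in the submitters' processing notes, a different one in the study's methods), sorted with SAMtools 1.9 and counted per gene with featureCounts 1.6.2. The deposited table holds raw counts per gene and library. Which library ran in which lane is not given in the sources used here. Genes with at least 30 reads over the 12 libraries were kept (17290 of 30249; the others held 0.019% of reads). Season was tested with edgeR 4.0.16 in R 4.3.3 (TMM scaling, quasi-likelihood, season only), and log2 CPM used a prior count of 2. Libraries are 1 per bear and season.

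The bears were the same in both seasons, per the study's methods. After the season means were taken off, winter and summer libraries of 1 bear had correlations of 0.0903 to 0.344, against a median of -0.0634 and a highest value of 0.142 for libraries of different bears. A fit with the bear as a block was run beside the main one. The median log2 FC over all genes was -0.00 with TMM and -0.08 with library totals. No 2 libraries were duplicates.

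Members and gene lists were chosen with earlier results of these data known. Named genes were the 10 members, up to 4 called genes per pathway list with the largest change (mean log2 CPM of 1 or more), the readouts ATF3, ATF5, ASNS, HSPA5, DNAJB9, HERPUD1, SDF2L1, EIF2S1 and PPP1R15B, and the 3 nearest genes per called member. One gene that this rule names is not reported here. EIF2S1 and 4 other list symbols were matched by gene ID through the RefSeq gene table. TNFRSF10B, SRPRB and MYL1 were not analysed here. Alternatives were DESeq2 1.42.0, limma 3.58.1 (voom), RLE scaling, library totals, no filter, filterByExpr, the block, each bear left out, and a stricter threshold (adjusted p below 0.01 with FC above 1.3 or below 0.77). The fits without the summer library of bear 1512 or the winter library of bear 1509, and the list of immediate early genes, were chosen after seeing the data. The script was tested on simulated counts.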

Additional observations from a re-analysis of the deposited data

Results flagged for a closer look

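Libraries that stood apart within a season were searched for with Dixon's ratio, the gap to the nearest library over the range of the 6 log2 CPM values against its 95% critical value. Of 142 groups of 6 libraries checked, 14 passed, and chance passes about 5%.

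Among the 10 genes, ATF4 in summer had a ratio of 0.636, with bear 1305 at 382 CPM beside 222 to 270 CPM. PPP1R15A in summer had a ratio of 0.784, with bear 1512 at 482 CPM beside 44.6 to 74.5 CPM.

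Among genes of the eIF2 and ATF4 lists, EIF5 in summer had 0.647 (bear 1316 at 200 CPM beside 260 to 301 CPM), EIF2S2 had 0.669 in summer (bear 1317 at 88.0 beside 110 to 124 CPM) and 0.699 in winter (bear 1512 at 183 beside 132 to 146 CPM). In summer, DELE1 had 0.705 (bear 1512 at 27.5 beside 39.2 to 45.4 CPM), ATF5 had 0.730 (bear 1512 at 1.02 beside 1.76 to 2.15 CPM) and ALDH18A1 had 0.627 (bear 1317 at 48.8 beside 27.4 to 34.0 CPM). For SEL1L in winter the ratio was 0.657 (bear 1511 at 66.1 beside 94.2 to 113 CPM), and for DNAJA3 in summer it was 0.683 (bear 1511 at 44.7 beside 53.5 to 58.1 CPM).

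Among the nearest genes, SLC10A7 had 0.824 in summer (bear 1316 at 4.15 beside 5.79 to 6.21 CPM) and 0.740 in winter (bear 1509 at 5.41 beside 3.10 to 3.58 CPM). RBM34 in summer had 0.627 (bear 1317 at 17.5 beside 23.8 to 28.5 CPM) and LMOD2 in summer had 0.720 (bear 1316 at 985 beside 645 to 726 CPM).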

How the results depend on the processing

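ATF4, DDIT3, TRIB3 and ATF6 kept their direction and call in all 16 alternative fits at the same threshold, with adjusted p up to 0.0227, 0.0411, 0.0467 and 0.00924. XBP1 kept them in 15: over the fits leaving out 1 bear its log2 FC ran from -0.39 to -0.30 and it was not called without bear 1511, so the count of lower members ran from 1 to 2. The stricter threshold left 2 higher members (TRIB3 was lost) and 1 lower (ATF6, XBP1 was lost), 2077 of all genes higher and 2077 lower, and 23 higher and 28 lower genes of the pathway lists. The higher pathway count was 25 with library totals and 25 to 47 over the fits leaving out a bear or library, lowest without bear 1305. The lower pathway count, 47 in the main fit, was 37 without bear 1511. It was 51 with library totals and without the winter library of bear 1509. The log2 FC of ERN1 changed sign with the replicate block (0.0097), DESeq2 with the block (0.017), limma voom (0.020), and over the fits leaving out libraries it ran from -0.16 to 0.10. Over the fits leaving out 1 bear, ATF5 ran from -0.019 (without bear 1512) to 0.31 and PPP1R15B from -0.12 to 0.013 (without bear 1317), and PPP1R15B was at 0.0097 without the winter library of bear 1509. The replicate block gave 3 higher and 2 lower members and changed no member's call. Of the 975 values of the other 61 named genes, 925 kept direction and side of the threshold. The cause of these shifts was not tested. CHAC1 had no value under filterByExpr, and DESeq2 without the block gave PPP1R15A no adjusted p. Depth limited CHAC1, SDF2L1 and BATF3. Levels were also low for the called genes MTHFD2, CTH, ALDH1L2, PSAT1 and PMAIP1.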
